A study of Rattus norvegicus with 6 samples.

Results

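The genes described here encode the proteins of the mitochondrial ribosome, followed in rat RK3E kidney epithelial cells before and after transformation by GLI1. Members were taken by name from the array's annotation: every probe set assigned to exactly 1 gene symbol beginning with Mrpl (large subunit) or Mrps (small subunit) and a digit. This gave 97 probe sets for 73 genes, 46 Mrpl and 27 Mrps, among 14217 named genes and 31099 probe sets on the array. Each gene was represented by its brightest probe set over the 6 arrays, and 55 of the 73 genes had a single one. All 73 lay above the signal filter and were tested.

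Transcript levels were measured with 6 1-colour Affymetrix arrays hybridised with biotin-labelled cRNA. Of these, 2 carried RNA of parental RK3E cells and 4 carried RNA of lines grown from single foci of RK3E cells transfected with a GLI1 expression construct. RK3E cells are rat kidney cells immortalised with an adenovirus early-region oncogene, which all 6 samples share. By the labels 1 GLI1 array is clone I, 2 are clone II, and 1 names no clone, so the GLI1 group holds few independent lines. Both groups were kept in DMEM with serum, and the promoter and the species of the GLI1 construct are not given in the sources used here. The labels call the samples biological replicates without saying how cultures were separated, so the p-values measure the spread between these arrays only. In the sentences below GLI1 values stand in the order no clone named, clone I, clone II replicate 1 and clone II replicate 2, and parental values in the order replicate 1 and replicate 2. The comparison asks which transcripts differ once GLI1, the transcriptional activator at the end of the Hedgehog pathway, has transformed the line.

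The mitochondrial ribosome translates the few messenger RNAs of the mitochondrial genome, which encode membrane-embedded subunits of the respiratory chain and ATP synthase. All of its proteins are encoded in the nucleus, made in the cytosol and imported, while its ribosomal RNAs are made inside the organelle. The large subunit holds the peptidyl transferase centre, the exit tunnel and the stalks that engage translation factors, and the small subunit binds the messenger RNA and decodes it. Many of its proteins descend from those of the bacterial ribosome, and others are found only in mitochondria.

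The 2% trimmed means of the arrays differed only by rounding, while median signals ran from 567.7 to 696.3. Gli1 had log2 signals of 11.71 to 13.15 on the GLI1 arrays and of 5.17 and 6.505 on the parental arrays. Of 6 epithelial markers only Krt8 and Epcam passed the signal filter, and Krt18, Krt19, Cdh1 and Cdh16 lay below it. The summed signal of the 6 was 1295 to 8558 (GLI1) and 1796 to 2312 (parental). The GLI1 arrays differed by clone: Krt8 log2 signals were 12.06, 12.57, 9.07 and 9.23, against 10.08 and 10.40 in parental cells. Those of Epcam were 11.09, 10.90, 9.23 and 8.75, against 8.77 and 8.92. The summed signal of 7 fibroblast markers was 2390 to 6814 on GLI1 arrays and 152608 to 170310 on parental arrays. Of these the 3 collagen genes Col1a1, Col1a2 and Col3a1 fell. Pdgfra did not pass the test (log2 difference -0.06), and Pdgfrb, Dcn and Lum lay below the filter. None of the measured endothelial (2 of 3) and leukocyte (3 of 3) markers passed the filter. The part of these differences between the cultures in the results below was not tested.

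Some transcripts of mitochondrial ribosomal proteins rose in GLI1-transformed cells, in both subunits, and most did not pass the test. Of the 46 large subunit genes 9 rose, 0 fell and 37 did not pass the test, and of the 27 small subunit genes 7 rose, 0 fell and 20 did not pass (limma, 4 GLI1 against 2 parental arrays, Benjamini-Hochberg adjusted p under 0.05 over 18625 tested probe sets). The members called were 21.9% of the 73, beside 5.84% of all tested probe sets that rose and 7.25% that fell. The median log2 difference was 0.57 for the large and 0.53 for the small subunit, 1.48-fold and 1.44-fold, against 0.005 over all tested probe sets and 0.07 over all 10240 tested genes. The difference was above 0 in 65 of the 73 members (50.3% of all tested probe sets). At an unadjusted p under 0.05, 35 members were higher (14.2% of all tested probe sets) and 0 lower. On 37 of the 73, 50.7%, all 4 GLI1 arrays lay above both parental arrays, as they did for 19% of all tested probe sets. On 0 members did they all lie below (20.2%). Among the 10240 tested genes, each at its brightest probe set as for the members, 799 rose, 794 fell and 5658 had a difference above 0. Of these genes 1876 were higher at an unadjusted p under 0.05 (limma). On 2394 of them all GLI1 arrays lay above both parental arrays, and on 2025 all lay below.

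The members were bright probe sets. In the large subunit Mrpl17 was the brightest (mean log2 signal 14.47) and Mrpl14 the dimmest (10.25), and in the small subunit Mrps17 (14.79) and Mrps18c (9.99), where brightness also reflects the probes. Their median level over the arrays was a log2 signal of 12.88, and that of all tested probe sets was 11.09. Among the 4159 tested genes within the members' 10th to 90th percentile of brightness, 10.2% rose, 58.6% had a difference above 0, and the median was 0.11. Of the same 4159, 923 were higher at an unadjusted p under 0.05 (limma). On 1163 of them every GLI1 array lay above both parental arrays. In bulk samples a change in the number of mitochondria per cell, in cell size or in the cells making up the culture cannot be told apart from a change of these transcripts alone.

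**Figure D1:**
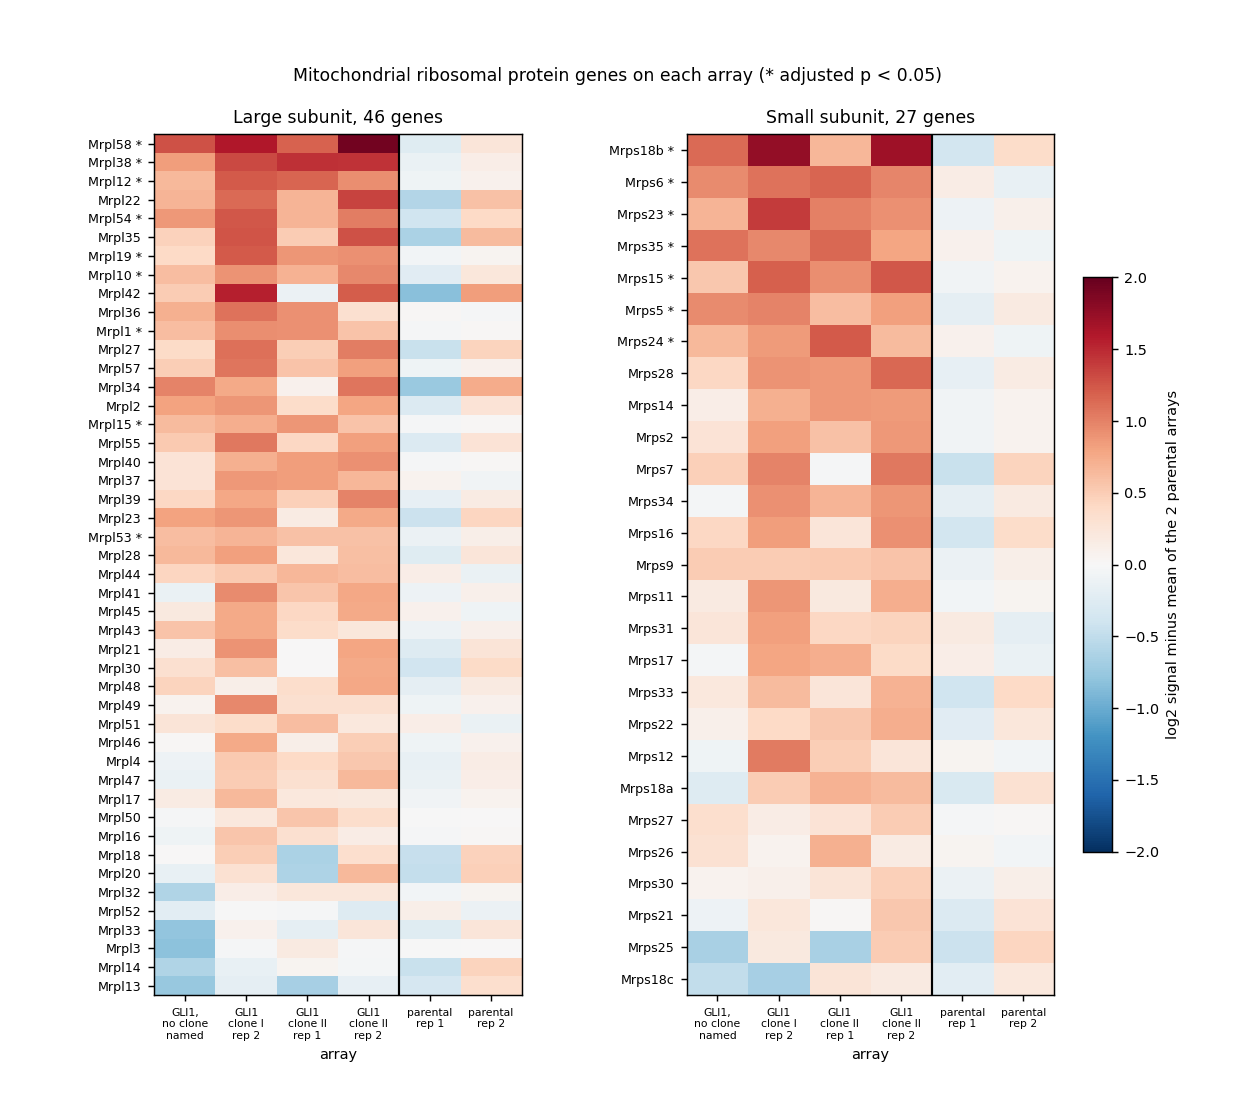
Heat map of the log2 signal of each of the 73 genes (rows, sorted by mean difference within each subunit) on each of the 6 arrays (columns), less the mean of the 2 parental arrays; red is higher, blue is lower, and an asterisk marks an adjusted p under 0.05. Most rows are red on the 4 GLI1 arrays, palest on the array with no clone named, and parental replicate 1 is bluer than parental replicate 2.

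The difference was seen on every GLI1 array, but not to the same degree. Set against the parental mean, the median large subunit member differed by 0.39, 0.76, 0.40 and 0.66 on the log2 scale over the GLI1 arrays, and the median small subunit member by 0.27, 0.82, 0.59 and 0.73. The parental arrays lay at -0.14 and 0.14 for the large and at -0.11 and 0.11 for the small subunit. Parental replicate 1 was the lowest of the 6 arrays for 48 of the 73 members, and clone I was the highest for 31. On the array with no clone named 43 members exceeded both parental arrays, and the counts were 62 for clone I and 55 and 67 for clone II. The same counts per array were not made over all tested probe sets. Against the parental mean, the median of all tested probe sets was 0.06, -0.02, -0.01 and 0.004 over the GLI1 arrays.

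RNA quality differed between arrays by the GAPDH control probe sets, whose ratio of 3' to 5' signal climbs when RNA is degraded or copied incompletely. This ratio was 2.09, 1.45, 7.52 and 1.39 over the GLI1 arrays and 3.66 and 1.43 over the parental arrays. Of the 73 members, 46 were lower on clone II replicate 1 than on replicate 2 and 60 were lower on parental replicate 1 than on replicate 2, with medians over the members of 0.21 and 0.25 on the log2 scale. Likewise 67 of the 73 were lower on the array with no clone named than on clone I (median 0.48), at ratios 2.09 and 1.45. Over all tested probe sets the median of replicate 2 less replicate 1 was -0.02 in clone II and 0.01 in parental cells. That of clone I less the array with no clone named was -0.07. Within the GLI1 group the lowest medians were on the array with no clone named, and the highest ratio was on clone II replicate 1. The part of the ratio in the results was not tested, beyond the values below with arrays left out. With both arrays of high ratio left out, 61 of the 73 members were still above 0 with a median of 0.41, 0 were called and 13 had an unadjusted p under 0.05 in the higher direction (limma; 0.848% of all probe sets rose there). Without parental replicate 1 alone, 1 member, Mrps6, was called (1.31% of all probe sets rose) and the large subunit median was 0.33. Without parental replicate 2 alone 3 were called (1.56%). Without clone I 6 were called (3.23%), and without the array with no clone named 26 (7.48%). Calls over all probe sets thus fell too where a parental array was left out, which leaves 1 parental sample, assumed to vary like the GLI1 arrays.

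**Figure D2:**
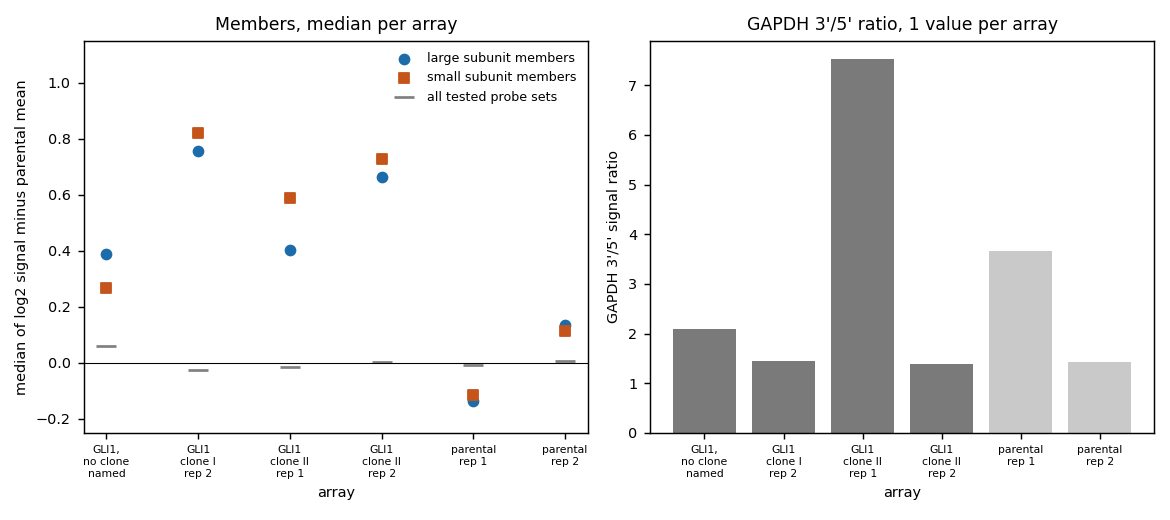
Left, the median over large subunit members (circles), small subunit members (squares) and all tested probe sets (dashes) of the log2 signal less the parental mean, for each array; right, the GAPDH 3'/5' signal ratio of each array as bars. The 4 GLI1 arrays sit between 0.27 and 0.82, above both parental arrays, and the ratio is highest on clone II replicate 1 (7.52) and parental replicate 1 (3.66).

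Mrpl58 had the largest rise of the family. Its product is a peptidyl-tRNA hydrolase built into the large subunit, where it can release the chain from stalled ribosomes. The GLI1 arrays gave log2 signals of 13.17, 13.49, 13.07 and 13.82, and the parental arrays 11.66 and 12.14. The lowest GLI1 array was above the highest parental array. Mean log2 signals were 13.39 ± 0.34 (SD, n = 4) and 11.90 ± 0.34 (SD, n = 2), a 2.81-fold rise (log2 1.49, SE 0.25, adjusted p = 0.0062). The call was lost without parental replicate 1 (adjusted p = 0.091), and held without any other single array.

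Mrpl38, a mitochondria-specific protein of the central protuberance, rose 2.41-fold. Its log2 signals were 12.19, 12.69, 12.82 and 12.81 in GLI1 cells and 11.22 and 11.50 in parental cells. The GLI1 mean was 12.63 ± 0.30 (SD, n = 4) and the parental mean 11.36 ± 0.19 (SD, n = 2), with adjusted p = 0.0087. The clone II arrays were both above the other GLI1 arrays, and the groups did not overlap.

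The stalk that recruits translation factors was represented by Mrpl12 and Mrpl10. Mrpl12 forms its flexible arms and has also been reported to bind the mitochondrial RNA polymerase. Its GLI1 log2 signals were 13.80, 14.38, 14.33 and 14.10 and its parental ones 13.07 and 13.25, a 1.99-fold rise (SE of the log2 difference 0.20, adjusted p = 0.0132). Mrpl10, the stalk base, gave 12.19, 12.47, 12.27 and 12.54 against 11.35 and 11.79, a 1.73-fold rise (SE 0.21, adjusted p = 0.0384). For both, every GLI1 array lay above both parental arrays. Mrpl1, the protein of the mobile stalk at the exit site, rose 1.69-fold, with log2 signals of 12.61, 12.91, 12.90 and 12.55 against 11.96 and 12.02 (SE 0.19, adjusted p = 0.0309). Its parental arrays were nearly equal.

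Mrpl15 and Mrpl19 are relatives of bacterial large subunit proteins. Mrpl15 rose 1.63-fold, from 13.004 and 13.06 on the parental arrays to 13.66, 13.76, 13.92 and 13.60 (SE 0.16, adjusted p = 0.0246). Mrpl19 rose 1.81-fold, from 12.79 and 12.89 to 13.24, 14.06, 13.73 and 13.76 (SE 0.23, adjusted p = 0.0394), with clone I highest. Mrpl53 and Mrpl54 are found only in mitochondria. Mrpl53 had the most even GLI1 arrays of those that rose, 13.95, 14.02, 13.93 and 13.92, against 13.22 and 13.46, a 1.53-fold rise (SE 0.16, adjusted p = 0.0329). Mrpl54 gave 13.31, 13.68, 13.12 and 13.46 against 12.04 and 12.84, a 1.94-fold rise (SE 0.25, adjusted p = 0.0397), and parental replicate 1 was the lower of its parental arrays. Mrpl54 is the ninth called gene of this subunit, beyond the 8 that the naming rule admits, and was added after its values were seen.

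In the small subunit the smallest adjusted p was that of Mrps6, a relative of bacterial S6. The GLI1 log2 signals were 14.54, 14.68, 14.76 and 14.58, and the parental ones 13.75 and 13.44. The GLI1 arrays lay close together and all above the parental arrays. Mean log2 signals were 14.64 ± 0.10 (SD, n = 4) and 13.60 ± 0.22 (SD, n = 2), a 2.06-fold rise (SE 0.16, adjusted p = 0.00451). The call was lost without parental replicate 2 (log2 0.89, adjusted p = 0.0617) and held without any other single array.

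Mrps35 and Mrps23 are mitochondria-specific proteins of the small subunit, and Mrps23 is among the genes mutated in inherited disorders of mitochondrial translation. Mrps35 rose 2-fold, with log2 signals of 13.31, 13.17, 13.37 and 13.01 in GLI1 cells and 12.29 and 12.13 in parental cells (SE 0.18, adjusted p = 0.00832). Mrps23 also rose 2-fold, with 13.43, 14.16, 13.76 and 13.66 against 12.66 and 12.85 (SE 0.22, adjusted p = 0.0186). Neither gene's groups overlapped. Mrps18b, 1 of several mitochondrial relatives of bacterial S18, had the largest difference of the subunit and the largest SE of the 16 called members. Its signals were 12.93, 13.56, 12.46 and 13.49 against 11.43 and 12.16, a 2.48-fold rise (SE 0.34, adjusted p = 0.0357). Clone II replicate 1 was the lowest GLI1 array and lay just above parental replicate 2.

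Mrps5, Mrps15 and Mrps24 have bacterial relatives, those of Mrps5 and Mrps24 at the entrance of the messenger RNA channel. Mrps5 rose 1.80-fold, from 12.19 and 12.55 to 13.31, 13.37, 12.99 and 13.19 (SE 0.19, adjusted p = 0.0223). Mrps15 rose 1.97-fold, from 11.90 and 12.03 to 12.51, 13.16, 12.90 and 13.20 (SE 0.23, adjusted p = 0.0241). Mrps24 rose 1.79-fold, from 13.27 and 13.11 to 13.84, 14.03, 14.42 and 13.83 (SE 0.20, adjusted p = 0.0283), with clone II replicate 1 highest. All 16 called members had every GLI1 array above both parental arrays. They were picked by a small adjusted p from these same values, so this separation adds nothing to the calls. The folds of the 16 ran from 1.53 to 2.81.

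**Figure D3:**
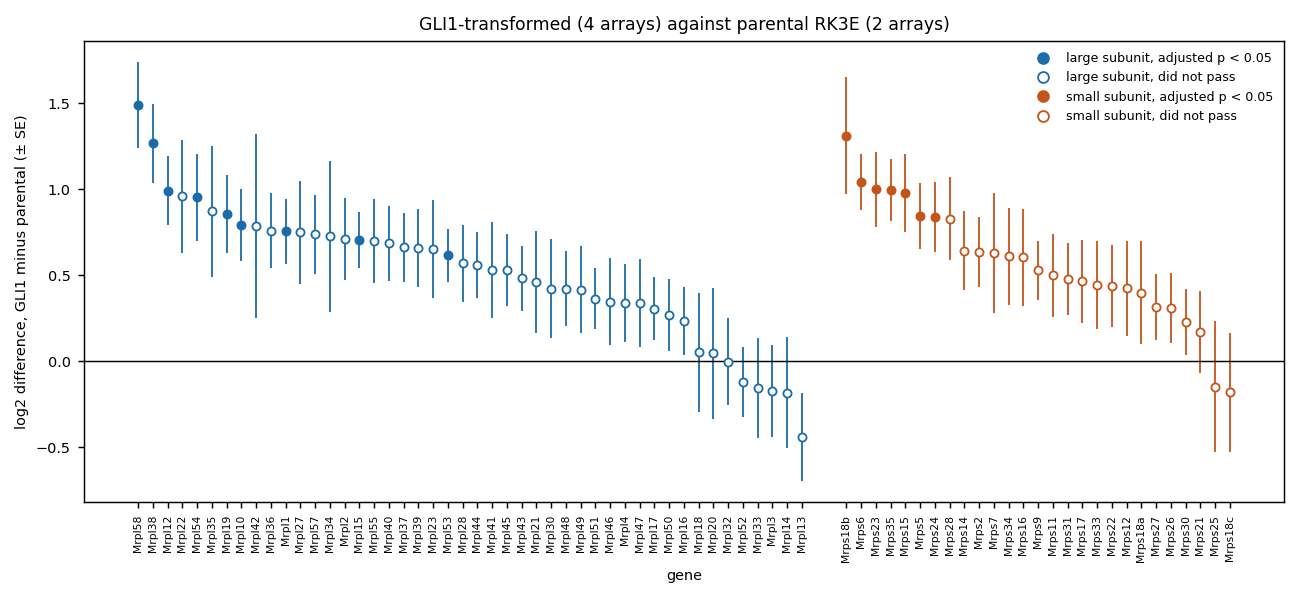
Log2 difference of each gene between GLI1-transformed (4 arrays) and parental cells (2 arrays), with the SE of the fit as bars; filled points passed an adjusted p of 0.05 and open points did not. The points run from 1.49 for Mrpl58 to -0.44 for Mrpl13, and 65 of 73 lie above 0.

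Several members stood close to the threshold without passing it. Mrpl36, a small protein with a bacterial relative, had a log2 difference of 0.76 (SE 0.22, adjusted p = 0.052), and Mrps28, the counterpart of bacterial S1, one of 0.83 (SE 0.24, adjusted p = 0.0537). Mrpl37 gave 0.66 (0.0603) and Mrpl57 0.74 (0.068). Their GLI1 arrays all lay above both parental arrays. Other differences of this size came with wide spread: Mrpl42 gave 0.79 (adjusted p = 0.373), with 12.26 on parental replicate 2 and 10.58 on parental replicate 1. Mrps9 had nearly equal GLI1 arrays, 12.53 to 12.60, above 11.90 and 12.15 on the parental arrays, and did not pass (log2 0.53, adjusted p = 0.0767).

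A minority of members did not have a higher mean. The difference was below 0 for 8 genes, of which none passed: Mrpl13 (-0.44, adjusted p = 0.3), Mrpl14 (-0.18, 0.76), Mrps18c (-0.18, 0.78), Mrpl3 (-0.17, 0.723), Mrpl33 (-0.16, 0.773), Mrps25 (-0.15, 0.839), Mrpl52 (-0.12, 0.748) and Mrpl32 (-0.003, 0.996). Mrpl32, whose import and cleavage are linked to ribosome assembly, was the large subunit member nearest to 0. Its GLI1 log2 signals were 12.45, 13.18, 13.28 and 13.28, around 13.005 and 13.10 on the parental arrays. Mrpl3, near the peptidyl transferase centre, was likewise low on the array with no clone named, 12.74, while its other 5 arrays lay between 13.54 and 13.75. In the small subunit Mrps25 was nearest to 0, with log2 signals of 11.79, 12.63, 11.80 and 12.94 on the GLI1 arrays and 12.01 and 12.87 on the parental arrays. Its arrays of higher GAPDH ratio were low in both groups.

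Proteins with and without bacterial relatives were described apart. Among 27 large subunit genes with bacterial relatives 5 rose and the median log2 difference was 0.57, and among the 19 found only in mitochondria 4 rose with a median of 0.56. In the small subunit 4 of 15 with bacterial relatives rose (median 0.63) and 3 of 10 counted as mitochondria-specific (median 0.46). The latter group includes Mrps18b, which rose, although it is related to bacterial S18. The remaining small subunit names, Mrps30 and Mrps18a, belong to proteins that sit in the large subunit of the mammalian mitoribosome, and their differences were 0.23 (adjusted p = 0.484) and 0.40 (0.428). None of the differences between these groups was tested. Of 13 genes of special function or linked to inherited mitochondrial translation disorders 3 rose (Mrpl12, Mrpl58 and Mrps23) and 0 fell. Of all members 21.9% rose, and of all tested probe sets 5.84%. Of the other 10, Mrpl3 (-0.17, 0.723) and Mrps25 (-0.15, 0.839) were below 0, and Mrps28 gave 0.83 (0.0537). The rest were Mrpl44, with an RNase III-like fold, at 0.56 (0.0873), Mrps2 at 0.64 (0.0745), Mrps14 at 0.64 (0.0993), Mrps7 at 0.63 (0.275), Mrps34 at 0.61 (0.19), Mrps16 at 0.60 (0.197) and Mrps22 at 0.44 (0.261).

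Further probe sets existed for 18 members. Of 24 such probe sets 19 passed the filter, and 18 of these had a difference above 0 (50.3% of all tested probe sets). By limma 0 were called, beside 5.84% of all tested probe sets that rose and 7.25% that fell. Their levels were lower than those of the main probe sets by construction. Of the 16 called genes 4 had another tested probe set: Mrpl10 (1.17, adjusted p = 0.202), Mrpl12 (0.41, 0.347), Mrps15 (0.76, 0.185) and Mrps24 (0.14, 0.884). All 4 had the same sign as the main probe set and did not pass. The one change of sign was in Mrps18c, whose second probe set gave 0.40 (0.552) where the main one gave -0.18.

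Clone II and the other GLI1 arrays were each set against parental cells. Against the same 2 parental arrays, in a model with clone II, the other GLI1 arrays and parental cells as 3 levels, 4 large and 6 small subunit members rose in clone II (3.99% of all tested probe sets; 5.74% fell), and 4 and 5 rose in the other GLI1 arrays (5.57%; 6.83% fell), while 0 members fell in either. The difference was above 0 for 69 members in clone II (49.3% of all tested probe sets) and 65 in the other arrays (51.1%). The large subunit medians were 0.57 in clone II and 0.55 in the other arrays, and the small subunit medians were 0.58 and 0.51. Mrps6 gave log2 differences of 1.07 and 1.01, Mrpl58 1.55 and 1.44, and Mrps35 0.97 and 1.02, for clone II and the other arrays respectively. The 2 comparisons share their parental arrays. Compared directly, clone II and the other GLI1 arrays differed in 0 members (limma; 0.0161% of all tested probe sets were higher and 0.113% lower in clone II), and 44 members had a difference above 0 (49.1%). At an unadjusted p under 0.05, 1 member, Mrps18c, was higher in clone II (3.64% of all tested probe sets; log2 0.80, adjusted p = 0.52), and 0 were lower (5.01%). The median log2 difference was 0.03 for the large and 0.16 for the small subunit.

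The promoters of several members hold motifs of factors known to act on nuclear genes for mitochondrial proteins. Promoters, from 250 bases before to 50 after the annotated start, were taken from RefSeq on the rat assembly GRCr8 for the 59 of 73 members listed there. The 5 upstream stretches below show what these matches look like in members that rose (Mrpl58, Mrps18b and Mrpl53), in one whose stretch holds both motifs (Mrpl57) and in one whose signal did not differ (Mrpl32). Capitals mark matches on either strand to GCGCA, any base and GCGC, the motif of the nuclear respiratory factor NRF1, or to CCGGAAG, an ETS motif bound by GABPA. All are printed 5′ to 3′ on the strand of the gene. The promoter of Mrps18b also holds an ETS match, outside the stretch shown.
Mrpl58 (chr10:101145292-101145341, plus strand, ETS): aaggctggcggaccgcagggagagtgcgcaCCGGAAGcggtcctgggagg
Mrps18b (chr20:2842956-2843005, plus strand, NRF1): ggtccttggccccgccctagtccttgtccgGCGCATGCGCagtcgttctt
Mrpl53 (chr4:117172957-117173042, plus strand, ETS on both strands): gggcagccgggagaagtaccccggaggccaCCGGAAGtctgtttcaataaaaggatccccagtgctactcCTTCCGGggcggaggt
Mrpl57 (chr15:36086341-36086456, plus strand, NRF1, ETS and NRF1): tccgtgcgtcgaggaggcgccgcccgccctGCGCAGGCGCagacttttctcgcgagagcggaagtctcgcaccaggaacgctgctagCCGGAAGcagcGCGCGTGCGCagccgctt
Mrpl32 (chr17:55260559-55260628, plus strand, NRF1): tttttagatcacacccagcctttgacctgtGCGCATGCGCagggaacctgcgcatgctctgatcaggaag

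The ETS letters were found in 20 of the 59 member promoters, 33.9%, and in 11.2% of 19005 protein-coding promoters of the same length. The NRF1 letters were found in 9, 15.3%, against 6.09%, and AANATGGCG, a motif of YY1, in 12, 20.3%, against 4%. The motif CACGTG, bound by MYC among others, was in 6 members, 10.2%, against 7.27%, and GGGCGG, the GC box of SP1, in 30, 50.8%, against 43.1%. GACCACCCA, the GLI motif, was in 0 of the 59 member promoters and in 0.347% of all promoters, which says only that these letters are not in this window. No motif searched contains another. ETS letters were in 3 of 11 called and 17 of 48 other members, and NRF1 letters in 1 and 8. Member promoters had a median of 18 CG dinucleotides and 56% G and C, against 12 and 55.3% in all promoters. The part of this composition in the shares above was not tested. A match to these letters is a description and not a binding site.

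Many members share a promoter region with a neighbour. Of the 59 members with an annotated start, 17, or 28.8%, had a protein-coding gene starting within 1000 bases upstream on the opposite strand, as did 6.99% of all protein-coding genes. Mrpl46 and Mrps11 are such a pair with each other. Of the partners 14 were tested, and 2 of these, Mrpl46 and Mrps11, are members themselves. Of the 14, 11 had a difference above 0 (50.3% of all tested probe sets), and 0 rose (5.84%) or fell (7.25%). Mrps18b rose beside Ppp1r10, a phosphatase regulatory subunit gene, which gave 0.38 (SE 0.23, adjusted p = 0.315). Mrpl18 stood at 0.05 (adjusted p = 0.942) beside the chaperonin gene Tcp1 at 0.52 (0.102), and Mrpl32 at -0.003 beside the proteasome gene Psma2 at -0.08 (0.889).

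Other parts of the mitochondrial translation system were examined as lists of named genes, chosen with earlier results of these data known. The 5 mitoribosomal proteins that carry other symbols (Dap3, Ptcd3, Chchd1, Aurkaip1 and Gadd45gip1) had differences of 0.37 to 0.63, median 0.48, and 0 passed (5.84% of all tested probe sets rose; 0 of the 5 had an unadjusted p under 0.05). Of 27 tested genes for mitoribosome assembly and ribosomal RNA processing 4 rose, 0 fell, and the median was 0.39. C1qbp, a matrix protein that binds mitochondrial messenger RNA and ribosomes, rose by 0.92 (SE 0.17, adjusted p = 0.0102), and the assembly GTPase gene Gtpbp10 by 0.99 (0.20, 0.0131). The ribosomal RNA methyltransferase gene Mrm3 rose by 1.61 (0.39, 0.0276) and the pseudouridine synthase gene Rpusd4 by 0.81 (0.22, 0.0444). Another probe set of Mrm3 also rose (1.19, adjusted p = 0.0382). None of the 4 was called without parental replicate 1, and the call of Rpusd4 was lost with any 1 array left out.

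Among 14 tested mitochondrial translation factors 1 rose (5.84% of all tested probe sets), Mtres1, which encodes a matrix protein that rescues stalled mitochondrial ribosomes. The GLI1 log2 signals were 14.003, 14.05, 13.16 and 13.27 and the parental ones 11.05 and 11.01, a 6.02-fold rise (SE 0.28, adjusted p = 0.000834). The clone II arrays were lower than the other GLI1 arrays, with a log2 difference of -0.81 (adjusted p = 0.203), and all were above the parental arrays. This call held under each of the 14 alternative settings. The list's median was 0.31, and the elongation factor gene Tufm gave 0.37 (adjusted p = 0.255). Of 13 tested mitochondrial aminoacyl-tRNA synthetase genes 1 rose (5.84% of all tested probe sets), Sars2, by 0.84 (SE 0.24, limma adjusted p = 0.0473). The other 12 did not pass, and the median was 0.56. The call of Sars2 was lost with any 1 array left out.

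Genes for transcription and upkeep of mitochondrial DNA were a further list. Tfam, which packages mitochondrial DNA and starts its transcription, had log2 signals of 13.95, 13.87, 14.03 and 13.94 on the GLI1 arrays and 12.78 and 12.93 on the parental arrays. It rose 2.13-fold (SE 0.15, adjusted p = 0.00281). Its GLI1 arrays were nearly equal, and without parental replicate 1 the adjusted p was 0.051. Tefm, the elongation factor of the same polymerase, rose by 0.81 (SE 0.20, adjusted p = 0.03). Of the 14 tested genes these 2 rose (5.84% of all tested probe sets), 0 fell (7.25%), and the median was 0.26. The call of Tefm was lost without either parental array or either clone II array.

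The 15 tested nuclear regulators of mitochondrial genes went apart: 1 rose (5.84% of all tested probe sets) and 1 fell (7.25%). Ppargc1a, the coactivator PGC-1alpha that works through NRF1 and other factors, had log2 signals of 9.66, 9.68, 9.69 and 9.09 in GLI1 cells and 6.73 and 5.49 in parental cells. It rose (adjusted p = 0.00224), but both parental signals lay below the filter of 8.33, which the gene passed only through the GLI1 arrays, so no fold is given. In 5 of the 14 alternative settings its mean lay below the filter and it was not tested, and it was called in the other 9. Mycn fell by 1.97 (SE 0.47, adjusted p = 0.0258), a call lost without either parental array or clone I. Nrf1 gave 0.43 (adjusted p = 0.207), Gabpa 0.52 (0.0878), Yy1 -0.03 (0.936) and Myc -0.98 (0.191). The list's median was 0.07.

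Respiratory chain and ATP synthase subunits encoded in the nucleus had a smaller median, 0.23 over 71 tested genes, of which 3 rose (Atp5if1, Uqcrq and Ndufb2) and 0 fell, a share no larger than the 5.84% of all tested probe sets. Both other probe sets of Atp5if1 did not pass (0.16, adjusted p = 0.837, and 0.31, 0.638). Cytosolic ribosomal proteins had a median of 0.44 over 43 tested genes. Of these 3 rose (Rpl7, Rpl4 and Rpl35) and 0 fell, beside the same 5.84% of probe sets that rose. Another probe set of Rpl7 did not pass (0.43, limma adjusted p = 0.35). Without parental replicate 1 these medians were 0.02 and 0.18, and those of the large and small mitoribosomal subunits 0.33 and 0.45. With all 6 arrays the difference was above 0 in 62 of the 71 respiratory chain genes and 41 of the 43 cytosolic ribosomal genes. It was above 0 in 65 of the 73 members and in 50.3% of all tested probe sets. At an unadjusted p under 0.05 (limma), 9 of the 71, 18 of the 43 and 35 of the 73 were higher (14.2% of all tested probe sets). Differences between these lists were not tested.

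**Figure D4:**
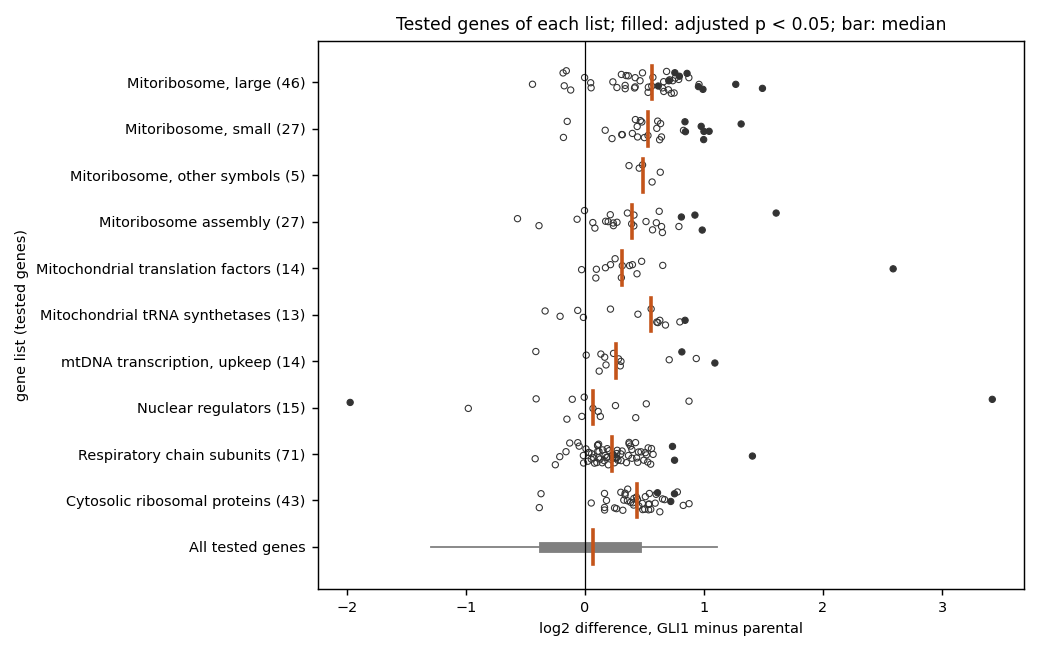
Log2 difference between GLI1-transformed and parental cells for each tested gene (points, filled where the adjusted p was under 0.05) of 10 lists, with list medians as vertical bars; the bottom row gives the 5th to 95th percentile (line), the quartiles (thick line) and the median of all tested genes. Medians are 0.57 and 0.53 for the mitoribosomal subunits, 0.44 for cytosolic ribosomal proteins, 0.23 for respiratory chain subunits and 0.07 for all tested genes.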

How the data were processed

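The authors deposited 1 linear intensity for each probe set on each array, computed with MAS5, per the submitters' processing notes. MAS5 combines the probes of a set into 1 signal, and the 2% trimmed means of the deposited arrays (2500.68 to 2500.76) show a common scale. Its version, detection calls and the genome build are not given in the sources used here. After a floor of 1, the deposited intensities were log2-transformed. The 57 control probe sets were left out, and the 18625 of 31042 probe sets with a mean log2 signal above the 40th percentile (8.33) were fitted with limma (version 3.58.1, R 4.3.3; lmFit, then eBayes with an intensity trend), two-sided, Benjamini-Hochberg over all of them, threshold 0.05, with 4 residual degrees of freedom. "Rose", "fell" and "called" mean past that threshold. SDs are between arrays, and SEs belong to log2 differences. Gene names came from the array's annotation table; all 73 members matched the rat gene list by identifier, and no symbol changed. The members, the lists, the rule for named genes (called members in order of adjusted p, up to 8 per subunit; members nearest 0; up to 4 called genes per list) and the alternatives were chosen with earlier results of these data known. The procedure was tested on simulated data. Neighbouring genes were found from annotated starts.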

Additional observations from a re-analysis of the deposited data

Results flagged for a closer look

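Among 75 sets of 4 GLI1 values examined (73 genes and the 2 subunit medians), 2 held an array far from the other 3, where chance alone gives about 1 in 20. Mrpl17 had a log2 signal of 14.91 on clone I, while its other GLI1 arrays lay between 14.43 and 14.48. Mrpl32 had a log2 signal of 12.45 on the array with no clone named, with 13.18 to 13.28 on the others.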

How the results depend on the processing

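How many members passed the threshold depended on single arrays, as did calls over all probe sets, of which 5.84% rose with all arrays, 1.31% without parental replicate 1, 1.56% without parental replicate 2 and 3.79% without an intensity trend. All 16 called members kept their sign under all 14 settings, and 60 of the 73 members did. With 1 array left out at a time, 0 to 14 large and 0 to 12 small subunit members rose, the lowest counts without parental replicate 1 (large, 10 with an unadjusted p under 0.05) and parental replicate 2 (small, 13), the highest without the array with no clone named. The large subunit median then ran from 0.33 to 0.72. Without the 2 arrays of highest GAPDH ratio 0 large and 0 small subunit members rose (6 and 7 with an unadjusted p under 0.05), and without an intensity trend 3 and 3. Fits that leave out arrays hold fewer samples, and the cause was otherwise not tested.

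With the replicate number as a replicate block 15 large and 9 small subunit members rose, 24 in all (6.39% of all tested probe sets rose there). All arrays carry replicate number 1 or 2, and the labels state no common culture or day for arrays sharing a number. Number 1 falls on the array of higher GAPDH ratio in clone II (7.52 against 1.39) and in parental cells (3.66 against 1.43). The same holds for the array with no clone named (2.09) against clone I (1.45). The part of the ratio in this setting was not tested. Replicate differences of clone II and parental cells correlated at 0.32 over tested probe sets and at 0.80 over the 73 members. With each array centred on its median, which raised the median difference over all probe sets to 0.17, 18 members rose (7.81% of probe sets) and the members' median was 0.72. In clone II against the other GLI1 arrays 0 members were called under any setting. With 1 array left out the large subunit median ran from -0.18 to 0.25 and the small one from -0.10 to 0.29, lowest without the array with no clone named and highest without clone I, where the lone remaining array is assumed to vary like the others. The replicate block was not run for that comparison.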
